A study of Homo sapiens with 12 samples.

Results

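The NADPH oxidase of phagocytes is described here through 6 of its genes, CYBB, CYBA, NCF1, NCF4, RAC1 and RAC2, which were taken by name from the 58735 rows of the count table. All 6 were found on a single row each, and all 6 were among the 25873 tested genes, which had 10 counts or more over the 12 libraries. RNA was sequenced from THP1 cells, a human monocytic leukemia line, in 4 groups of 3 libraries: mono-culture, co-culture with control ECs, co-culture with senECs and co-culture with EGCG-treated senECs. The ECs were human umbilical vein endothelial cells (HUVECs). Control ECs received DMSO, senECs were made senescent with 10 µM etoposide, and EGCG-treated senECs received etoposide followed by 100 µM epigallocatechin gallate (EGCG), a catechin of green tea. THP1 cells sat in the upper chamber of an insert with pores of 1 µm, in endothelial medium with or without ECs below, for 24 h. They were then removed and given 100 ng/ml LPS for 2 h, so all 4 groups had been stimulated with LPS and no unstimulated library entered the comparison. The study is of 1 cell line, and the labels do not say whether replicates were separate cultures, so the p-values measure the spread between these libraries.

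The phagocyte oxidase moves electrons from NADPH across a membrane to oxygen and so makes superoxide, which monocytes, macrophages and neutrophils use against microbes. CYBB encodes gp91phox (NOX2), the catalytic subunit, and CYBA encodes its membrane partner p22phox. NCF1 (p47phox, the organizer) and NCF4 (p40phox) are cytosolic and join the membrane pair on stimulation, together with a RAC GTPase. RAC1 is found in nearly all cells and RAC2 mainly in blood cells. Genetic loss of CYBB, CYBA, NCF1 or NCF4 causes chronic granulomatous disease.

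NCF1 is the subunit with near-identical copies in the genome, the pseudogenes NCF1B and NCF1C, and its reads are hard to place, so its sequence is given before its values. In GENCODE release 29 (GRCh38), NCF1 (ENSG00000158517.13) lies on chromosome 7 from 74773962 to 74789315 on the plus strand. The transcript NCF1C-201 aligned with the coding transcript NCF1-201 over 1394 bases at 99.43% identity, and NCF1B-203 over 1167 bases at 98.97% identity. The lines below show the junction of exons 1 and 2 in the coding sequence of NCF1-201 (bases 113 to 176 of the transcript, chr7:74774074-74774103 and chr7:74777267-74777300, plus strand) and the matching bases of both copies, with the GT repeat that tells NCF1 from NCF1C in capitals.
NCF1-201: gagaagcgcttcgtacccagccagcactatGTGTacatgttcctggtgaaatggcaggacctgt
NCF1B-203: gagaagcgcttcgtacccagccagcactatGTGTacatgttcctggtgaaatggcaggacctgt
NCF1C-201: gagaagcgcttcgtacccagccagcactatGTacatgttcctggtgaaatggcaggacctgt
In these annotated transcripts NCF1B-203 was the same as NCF1-201 over the whole stretch, and NCF1C-201 had 1 GT fewer. The exon junction differed, however. In NCF1-201 exons 1 and 2 held 30 and 34 of these bases, with all the capitals in exon 2. In NCF1B-203 they held 33 and 31, with the capitals on both sides of the junction. The match of NCF1B is thus one of spliced sequence as annotated, and the genomic bases were not compared. Of the 1247 windows of 150 bases (the read length) in NCF1-201, 566 (45.4%) were found unchanged in an annotated transcript of NCF1B or NCF1C. How reads that match several places were counted is not given in the sources used here, so the NCF1 row may hold reads of its copies and lack some of its own. For comparison, no window of the longest RAC1 transcript was found in RAC2 (0 of 2174).

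The other genes lie as follows. CYBB (ENSG00000165168.7) lies on chromosome X from 37780011 to 37813461 on the plus strand. The protein-coding gene AF241726.2 overlaps it on the same strand, and its row was at 0 counts in all 12 libraries. How reads in the overlap were counted is not given in the sources used here. The CYBB row may thus lack some of its reads, which was not tested. CYBA (ENSG00000051523.10) lies on chromosome 16 from 88643283 to 88651152 on the minus strand. NCF4 (ENSG00000100365.14) lies on chromosome 22 from 36860988 to 36878015 on the plus strand, opposite the antisense gene NCF4-AS1, which held 0 to 16 counts. RAC1 (ENSG00000136238.17, chromosome 7, 6374523 to 6403977, plus strand) has pseudogenes, of which RAC1P2 held 38 to 57 counts per library, and their shared sequence was not compared. RAC2 (ENSG00000128340.14) lies on chromosome 22 from 37225261 to 37244448 on the minus strand.

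Library totals ran from 15439836 to 22092600 counts, and the members held between 892 (CYBB) and 16371 counts (CYBA) in a library. Among 11 monocyte markers, the summed level was 905.3 to 1366 CPM (counts scaled to the same TMM-adjusted library size), with LYZ and TYROBP present and CD68 at 2 to 16 counts. Of 12 endothelial markers, 7 had at most 10 counts in every library, and CDH5, the defining cadherin of endothelium, had 0 or 1. The endothelial sum, carried by PECAM1 and EGFL7, was 157.3 to 182.6 CPM in mono-culture and 154.9 to 176.2 with control ECs, against 195.7 to 236.2 with senECs and 187.3 to 242.7 with EGCG-treated senECs. In mono-culture, which held no ECs, the mean of PECAM1 was already 143.9 CPM and that of EGFL7 19.37 CPM. Their means were 142.0 and 21.24 CPM with control ECs, 187.3 and 25.19 with senECs and 180.5 and 21.99 with EGCG-treated senECs. Which cells gave the difference between groups was not tested. Library senEC replicate 5 had the lowest TMM factor (0.912) and the highest level of all 12 libraries for CYBA, NCF4, RAC1 and RAC2, so the fold changes of members in the senEC comparisons are also given without it where it moved them.

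Levels were compared between genes as FPKM over the union of all exons annotated for a gene, retained-intron transcripts included. For NCF1 this length was 3462 bases, against 1396 bases in the coding transcript NCF1-201. Over the shorter length the FPKM of NCF1 would be higher, so its place in the order below, and its ratio to NCF4, depend on the length used. CYBA was highest, at 202.7 ± 34.5 FPKM (SD, n = 12). RAC1 followed at 104.0 ± 10.4 and RAC2 at 89.3 ± 7.69 FPKM. NCF4 had 68.9 ± 11.0, NCF1 48.0 ± 9.14 and CYBB 29.3 ± 16.5 FPKM. CYBA stood apart from the rest, since its lowest library (168.4 FPKM) lay above the highest library of RAC1 (126.6 FPKM). RAC1 and RAC2 overlapped across libraries, yet RAC1 was above RAC2 within each of the 12, with RAC2 making 42.2% to 49.2% of their summed FPKM. That order and share also depend on the union lengths used, 3114 bases for RAC1 and 2532 for RAC2. The places of the other genes depend on their lengths likewise, and other lengths were not tried. NCF1 and NCF4 overlapped too, and the ratio of NCF1 to NCF4 FPKM was 0.975 ± 0.0886 in mono-culture and 0.566 ± 0.055, 0.642 ± 0.0902 and 0.663 ± 0.0942 in the control EC, senEC and EGCG-treated senEC groups, in that order (SD, n = 3 each).

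**Figure D1:**
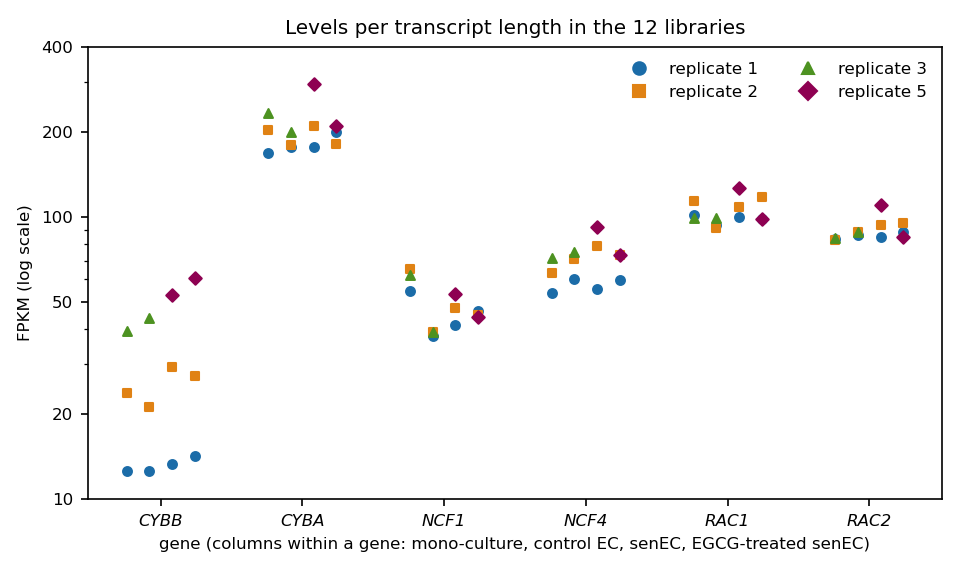
Level of each subunit in FPKM (log axis) in the 12 libraries, with the 4 groups as columns within each gene and marker shape for the replicate number. CYBA is highest in all libraries, and CYBB is the gene whose libraries are most widely spread, by replicate number and not by group.

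The first question was whether contact with the secretome of ECs changed the oxidase genes in THP1 cells. NCF1, the organizer subunit, was lower in co-culture. It measured 189.5, 226.2 and 215.8 CPM in the 3 mono-culture libraries (replicates 1, 2 and 3). With control ECs it measured 130.7, 134.9 and 134.9 CPM. With senECs it measured 143.1, 164.2 and 184.9 CPM (replicates 1, 2 and 5), and with EGCG-treated senECs 160.2, 155.9 and 152.8 CPM. All 9 co-culture libraries were below all 3 mono-culture libraries, and the highest of them was senEC replicate 5. The share of all genes whose libraries separate without overlap was not counted for any comparison.

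In edgeR's quasi-likelihood test NCF1 fell by 0.66 on the log2 scale with control ECs against mono-culture (95% interval -0.87 to -0.44, adjusted p = 0.00849), a level of 0.634 of that in mono-culture. Over the mean of the 3 co-cultures it fell by 0.48 (-0.65 to -0.31, adjusted p = 0.00645). With senECs the log2 fold change against mono-culture was -0.36 (-0.58 to -0.14, adjusted p = 0.182), and with EGCG-treated senECs -0.43 (-0.65 to -0.21, adjusted p = 0.11), neither past the threshold of 0.05. NCF1 was the only member called, which made 1 of 6 members in the control EC comparison, where 0.143% of all genes tested were called, and 1 of 6 in the comparison of any co-culture, where 0.723% were. In the senEC and the EGCG-treated senEC comparison with mono-culture 0 of 6 were called by edgeR, beside 0.309% and 0.213% of all genes, with 1 member at an unadjusted p under 0.05 in each. DESeq2 called NCF1, and no other member, in all 4 comparisons with mono-culture (adjusted p 1.53e-06 to 0.0334). Over all genes it called 116 with control ECs, 339 with senECs, 226 with EGCG-treated senECs and 439 over any co-culture. It gave no adjusted p to 9534, 12041, 11038 and 11539 genes, in that order. With replicate number added to its model, edgeR too called NCF1 in all 4 (adjusted p = 0.0103 with senECs and 0.00132 with EGCG-treated senECs). That model pooled the spread almost wholly across genes.

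The call of NCF1 was not kept under every omission of a single library, which also leaves a group smaller. It was kept in 8 of 12 omissions in the control EC comparison and in 10 of 12 over any co-culture. In the control EC comparison it was lost without mono-culture replicate 2 (adjusted p = 0.0756), mono-culture replicate 3 (0.0604), control EC replicate 1 (0.053) or control EC replicate 2 (0.0651). Over any co-culture it was lost without mono-culture replicate 2 (0.111) or 3 (0.0649). The fold change stayed between -0.73 and -0.60 and between -0.55 and -0.43, respectively, over the 12 libraries left out in turn. Without senEC replicate 5, NCF1 passed the threshold in the EGCG-treated senEC comparison (adjusted p = 0.0458) and had a log2 fold change of -0.45 in the senEC comparison (adjusted p = 0.145).

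The rows of both copies moved with NCF1. NCF1B measured 123.0 ± 9.53 CPM in mono-culture and 80.9 ± 3.47 with control ECs (SD, n = 3), a log2 fold change of -0.60 (adjusted p = 0.0333). NCF1C measured 146.0 ± 10.8 and 89.2 ± 3.66 CPM, a log2 fold change of -0.71 (adjusted p = 0.0105). Over any co-culture NCF1B fell by 0.45 (adjusted p = 0.0199) and NCF1C by 0.58 (adjusted p = 0.00322), and NCF1C was also called with EGCG-treated senECs (-0.62, adjusted p = 0.0278). NCF1 took 43.1% to 46.8% of the counts of the 3 rows in every library. Their sum was 479.5 ± 36.7 CPM in mono-culture and 303.6 ± 8.44, 374.4 ± 55.2 and 341.1 ± 12.9 in the control EC, senEC and EGCG-treated senEC groups, in that order (SD, n = 3 each). Because of the shared sequence shown above, the 3 rows may share reads, and which locus carried the fall was not tested.

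**Figure D2:**
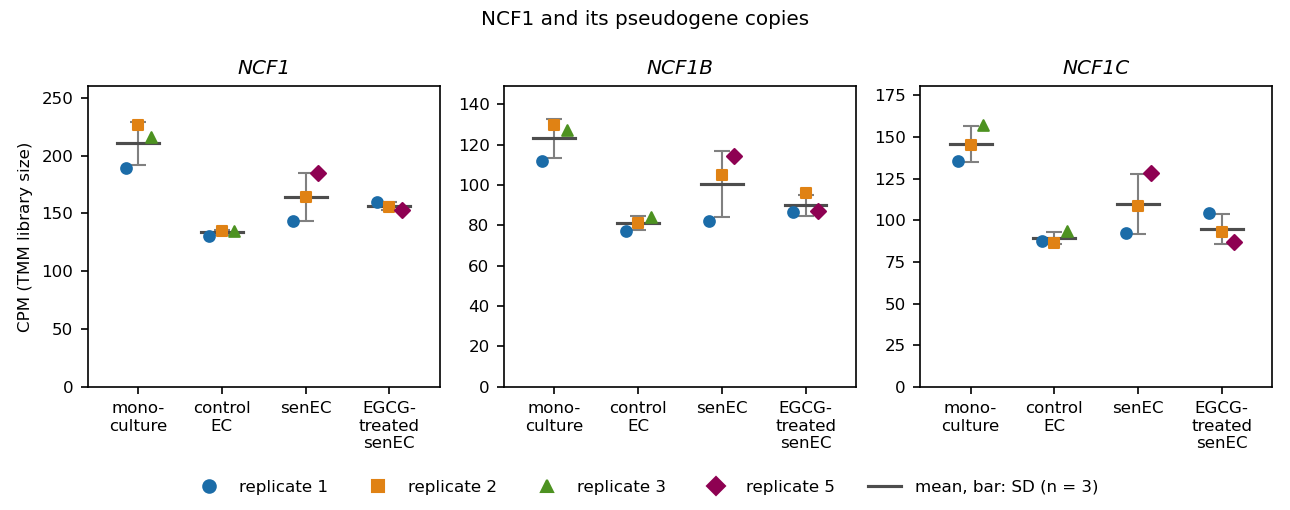
CPM of NCF1, NCF1B and NCF1C per library in the 4 groups, each axis from 0, with the mean and SD of the 3 libraries. The control EC group has the lowest mean in all 3 panels, and the mono-culture libraries lie above all co-culture libraries for NCF1 and NCF1C.

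The membrane pair did not pass the test. CYBA, the p22phox gene, measured 565.4, 681.4 and 782.3 CPM in mono-culture and 592.7, 603.6 and 668.9 CPM with control ECs. It measured 592.5, 705.5 and 989.4 CPM with senECs and 670.9, 606.3 and 706.1 CPM with EGCG-treated senECs. All 4 groups overlapped, and the log2 fold change of any co-culture against mono-culture was 0.01 (95% interval -0.25 to 0.26, adjusted p = 0.998). CYBB, the catalytic subunit, had a wider interval, with a log2 fold change of 0.26 (-0.60 to 1.13, adjusted p = 0.88). In this fit by group alone, that leaves room for a level between 0.661 and 2.18 times that of mono-culture. With replicate number added to edgeR's model the log2 fold change of CYBB was 0.16 (standard error 0.082, adjusted p = 0.424). That model pooled the spread almost wholly across genes, as given below.

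NCF4, the p40phox gene, measured 94.8, 110.9 and 125.5 CPM in mono-culture and 105.9, 124.3 and 131.8 with control ECs. The senEC libraries had 97.6, 138.5 and 162.3, and the EGCG-treated senEC libraries 105.5, 128.9 and 128.7 CPM. The groups overlapped, and any co-culture against mono-culture gave 0.17 (-0.09 to 0.44, adjusted p = 0.663). NCF4 and NCF1 thus gave different calls in the same libraries, but the difference between the genes was not tested.

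Of the GTPases, RAC1 measured 315.4, 353.5 and 309.4 CPM in mono-culture and 291.5, 284.0 and 309.0 with control ECs. The senEC libraries had 311.1, 337.1 and 394.4, and the EGCG-treated senEC libraries 307.2, 364.9 and 306.9 CPM. All 3 control EC libraries were below mono-culture, by a margin of under 1 CPM between the nearest, and the log2 fold change was -0.15 (-0.37 to 0.08, adjusted p = 0.912). RAC2 measured 212.0, 209.7 and 213.3 CPM in mono-culture and 218.2, 223.3 and 224.6 with control ECs. The senEC libraries had 214.3, 237.5 and 279.4, and the EGCG-treated senEC libraries 223.9, 241.3 and 214.4 CPM. All 9 co-culture libraries were above all 3 mono-culture libraries, but by a small step, with a log2 fold change over any co-culture of 0.12 (-0.05 to 0.30, adjusted p = 0.635), so that RAC2 was not called.

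**Figure D3:**
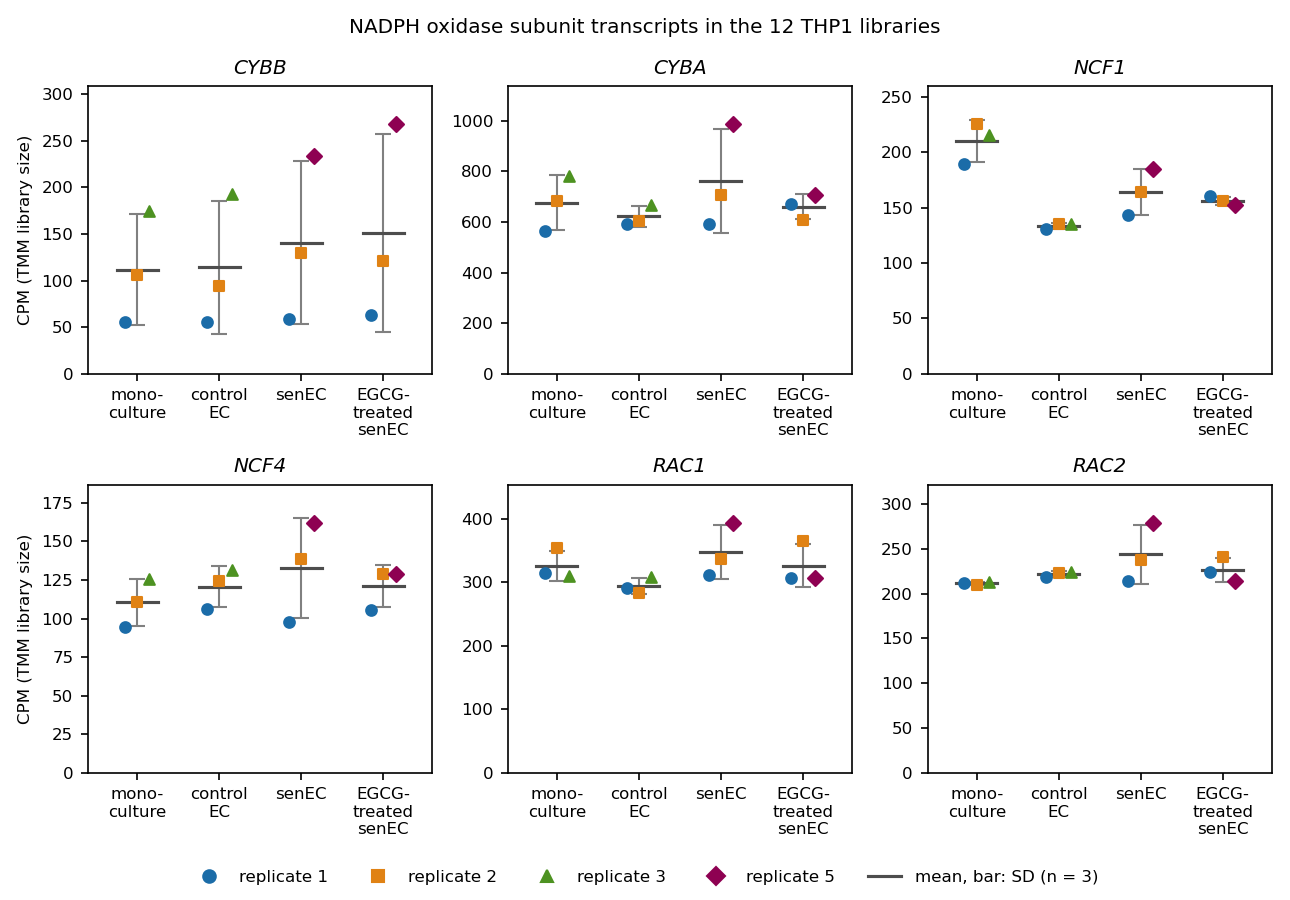
CPM of each subunit per library in the 4 groups, each axis from 0, with the mean and SD of the 3 libraries and marker shape for the replicate number. NCF1 is highest in mono-culture (189.5 to 226.2 CPM), CYBB is ordered by replicate number in all 4 groups, and senEC replicate 5 is the highest library for CYBA, NCF4, RAC1 and RAC2.

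The second question was whether senescence of the ECs, or EGCG treatment of senescent ECs, altered the oxidase genes of the THP1 cells. Between senECs and control ECs 0 of 6 members were called by edgeR, and by DESeq2 also 0, beside 0% of all genes tested. All 6 fold changes were above 0, with a median log2 fold change of 0.266 beside -0.007 over all genes, and 2 of the 6 had an unadjusted p under 0.05, as did 1709 of all 25873 genes. These were NCF1 (0.30, 95% interval 0.08 to 0.51, adjusted p = 0.728), whose 3 senEC libraries were above its 3 control EC libraries, and RAC1 (0.24, 0.01 to 0.46, adjusted p = 0.728), likewise without overlap. The lack of overlap has no share over all genes beside it, here or in the comparisons below. CYBA gave 0.29 (-0.02 to 0.61), CYBB 0.30 (-0.74 to 1.34), NCF4 0.14 (-0.18 to 0.45) and RAC2 0.13 (-0.08 to 0.35).

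These values were smaller without senEC replicate 5 and larger without senEC replicate 1. Without replicate 5 the log2 fold change between senECs and control ECs was 0.06 for CYBA, 0.02 for RAC2, 0.14 for RAC1 and 0.20 for NCF1, and it was below 0 for NCF4 (-0.03) and CYBB (-0.27). Without replicate 1 it was 0.45 for CYBA, 0.22 for RAC2, 0.31 for RAC1, 0.39 for NCF1, 0.32 for NCF4 and 0.67 for CYBB. Each omission leaves the groups with unlike replicate numbers, and CYBB, NCF4 and CYBA varied more by number than by group, as given below.

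Between EGCG-treated and untreated senECs no oxidase gene passed the test. By edgeR and by DESeq2 0 of 6 members were called, beside 0% of all genes tested, and 0 of 6 had an unadjusted p under 0.05 by either tool. The log2 fold changes were -0.21 for CYBA (95% interval -0.52 to 0.11), -0.13 for NCF4 (-0.45 to 0.18), -0.11 for RAC2 (-0.32 to 0.11), -0.09 for RAC1 (-0.32 to 0.13), -0.07 for NCF1 (-0.29 to 0.15) and 0.10 for CYBB (-0.93 to 1.14). Apart from CYBB, the intervals bound a change in either direction to a level between 0.698 and 1.14 times that with senECs. Without senEC replicate 5 the 5 negative values were all above 0, between 0.0045 (RAC2) and 0.0375 (NCF4). Without senEC replicate 1 all 6 values were below 0, between -0.36 (CYBA) and -0.16 (NCF1), with CYBB at -0.26.

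With EGCG-treated senECs against control ECs 0 of 6 were called by either tool, beside 0% of all genes tested by edgeR. NCF1 again had no overlap, all 3 EGCG-treated senEC libraries being above all 3 control EC libraries (0.23, 0.01 to 0.44, adjusted p = 0.979), and was the 1 member with an unadjusted p under 0.05. These comparisons share libraries with those before, so their values for NCF1 are not independent.

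**Figure D4:**
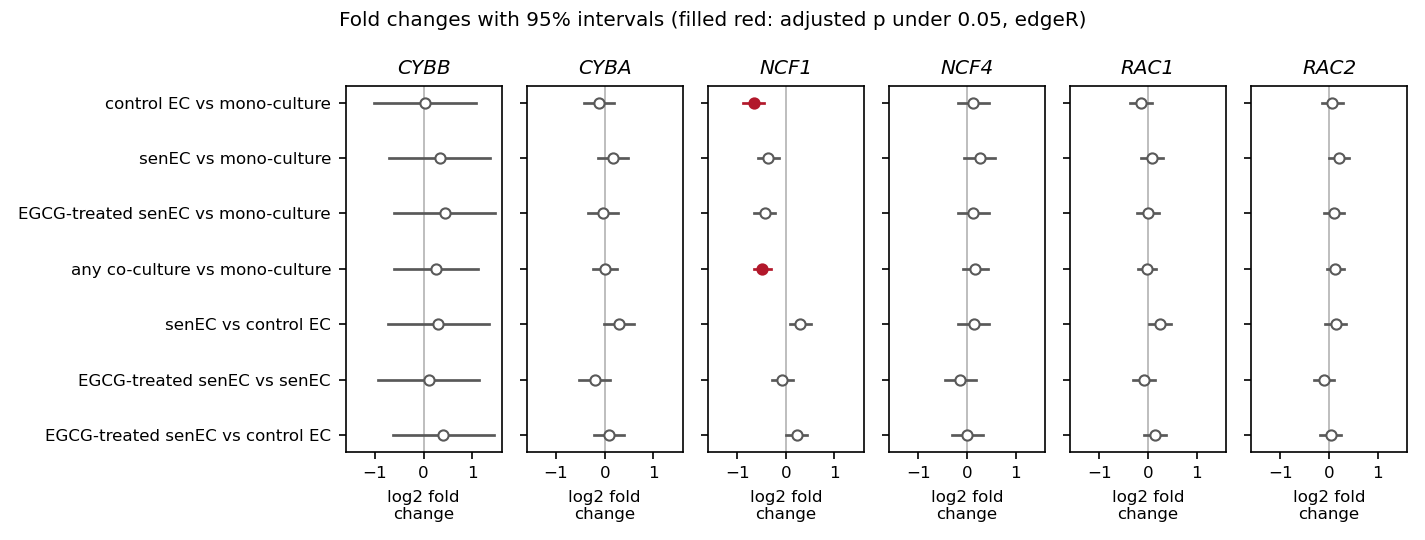
log2 fold change of each subunit in the 7 comparisons, with its 95% interval from edgeR's fit of all 12 libraries. The filled points are those with an adjusted p under 0.05, both of NCF1, and the CYBB intervals are the widest.

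CYBB varied far more than the other members, and by replicate number rather than by group. It measured 55.5, 105.5 and 174.3 CPM in mono-culture (replicates 1, 2 and 3) and 55.4, 93.6 and 193.4 CPM with control ECs. With senECs (replicates 1, 2 and 5) it measured 59.0, 129.7 and 233.2 CPM, and with EGCG-treated senECs 63.0, 121.2 and 268.6 CPM. In each of the 4 groups replicate 1 was lowest and replicate 3 or 5 highest. Across groups the 4 libraries numbered 1 (55.4 to 63.0 CPM), the 4 numbered 2 (93.6 to 129.7) and the 4 numbered 3 or 5 (174.3 to 268.6) did not overlap, with means of 58.2 ± 3.61, 112.5 ± 16.1 and 217.4 ± 42.1 CPM (SD, n = 4).

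Of the variation in log2 CPM of CYBB, 94.8% lay between replicate numbers and 3.88% between groups, with 3 and 5 taken as 1 number. For NCF1 the order was the opposite, at 5.47% between numbers and 86.0% between groups. NCF4 (71.5%) and CYBA (52.0%) varied more by number than by group (16.0% and 19.8%). RAC1 and RAC2 had 38.5% and 39.3% between groups and 15.9% and 12.4% between numbers, with the most left to neither.

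In a model with group and replicate number, the number terms were called for 3 of 6 members, beside 9.61% of all genes tested. These were CYBB (adjusted p = 3.78e-93), NCF4 (3.56e-05) and CYBA (0.000245). NCF1 (adjusted p = 0.73), RAC1 (0.754) and RAC2 (0.897) were not called. That fit pooled the spread almost wholly across genes (prior degrees of freedom 1195, against 11.24 in the fit by group), and its p-values rest on that pooled spread. The count of members called was also 3 whichever of the 12 libraries was left out. The labels do not say what a replicate number stands for, and number 3 occurs only in mono-culture and control EC libraries and number 5 only in the other groups, so that number and group cannot be fully told apart there.

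The members followed each other loosely across the 12 libraries, which share groups, replicate numbers and depth. The highest Pearson correlation of log2 CPM between members was that of CYBB with NCF4 (r = 0.851), followed by CYBA with NCF4 (0.768) and NCF4 with RAC2 (0.762). NCF1 gave r = 0.506 with RAC1, 0.441 with CYBA, 0.183 with CYBB, 0.0486 with NCF4 and -0.0267 with RAC2. Among 9351 genes with a mean of at least 10 CPM, those most like CYBB were AZIN1-AS1 (r = 0.99) and PSTPIP2 (0.987), those most like CYBA S100A6 (0.946) and GUSB (0.944), and those most like NCF1 its copy NCF1B (0.968) and PDE1B (0.964). NFIL3 (0.959) and TOM1 (0.953) were nearest to NCF4, SPTSSA (0.955) and STMN1 (0.949) to RAC1, and SLC35B1 (0.962) and EIF6 (0.961) to RAC2. These are descriptions over 12 libraries, without a test.

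Other genes of the oxidase family were mostly low or not called. Of 19 genes listed, 18 had a row under that symbol and 12 were tested. In the fit by group, with edgeR or DESeq2, the only calls in the 7 comparisons were of NCF1B and NCF1C, each time lower in co-culture. CYBC1, which is needed for the stability of the gp91phox and p22phox pair, measured 109.1 ± 8.26 CPM in mono-culture and gave 0.10 over any co-culture (adjusted p = 0.701). The other catalytic subunits were near absent, with NOX3, NOX4 and the maturation factor DUOXA2 at 0 counts, NOX1 at 5 to 33, NOX5 at 0 to 4 and DUOX1 at 3 to 27 counts per library. CDC42, a GTPase of most cells, was listed at 7 to 36 counts. The counting program and its annotation are not given in the sources used here. Whether so low a row, here or for CD68 above, reflects the level in the cells was not tested.

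Among 22 regulators of RAC and of oxidase assembly (among them guanine exchange factors, protein kinases C, SRC family kinases and phosphoinositide enzymes), 21 were tested and 0 were called by edgeR in each of the 7 comparisons, with 5 at an unadjusted p under 0.05 over any co-culture. DESeq2 called 2 there, both lower, PIK3CG (-0.40, adjusted p = 0.0283) and PLCG2 (-0.26, adjusted p = 0.0104). Beside them it called 439 of all 25873 genes, and 11539 of the 25873 had no adjusted p. Of 9 enzymes that make or remove superoxide and peroxide, 8 were tested and 0 were called by either tool. SOD2, the mitochondrial superoxide dismutase, was patterned by replicate number as CYBB was, at 805.7 ± 142.6 CPM in the libraries numbered 1, 1330 ± 66.1 in those numbered 2 and 2336 ± 334.4 in those numbered 3 or 5 (SD, n = 4, adjusted p of the number terms 3.32e-77).

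Of 8 transcription factors known to act on oxidase genes, CEBPB was the 1 called by edgeR, higher with senECs than in mono-culture (0.64, adjusted p = 0.0317) and over any co-culture (0.56, adjusted p = 0.0127). Without senEC replicate 5 the call of CEBPB with senECs was lost (0.48, adjusted p = 0.18), and that over any co-culture was not (adjusted p = 0.00752). SPI1 (PU.1), the myeloid factor of the CYBB and NCF1 promoters, measured 244.6 ± 18.9 CPM in mono-culture and 268.9 ± 5.03, 325.1 ± 53.2 and 313.0 ± 7.56 in the control EC, senEC and EGCG-treated senEC groups, in that order (SD, n = 3 each). Its log2 fold change over any co-culture was 0.30 (adjusted p = 0.181), and DESeq2 called it (adjusted p = 0.0372), in the direction opposite to NCF1. IRF8, which acts with PU.1 at CYBB, gave -0.05 (adjusted p = 0.903). Of the 11 monocyte markers, CD14, the LPS co-receptor, was higher with senECs than in mono-culture (2.09, adjusted p = 0.0363), but not past the threshold without senEC replicate 5 (1.44, adjusted p = 0.258). Over any co-culture CD14 (1.59, adjusted p = 0.0492) and the Fc receptor FCGR1A (0.55, adjusted p = 0.0348) were higher, and 0 of the 11 were called lower. The median log2 fold change of the 11 there was 0.157. With replicate number added to edgeR's model, 2 of them were called higher and 1 lower. Of 10 endothelial markers tested 0 were called by either tool, with 2 at an unadjusted p under 0.05 over any co-culture. The part of these changes, and of the endothelial sum given above, in the levels of the oxidase genes was not tested, and in bulk RNA a smaller share of cells of 1 kind cannot be told from less RNA per cell.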

How the data were processed

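RNA-sequencing was performed on 12 THP1 libraries in 4 groups of 3. The values are whole-number counts of reads for each gene symbol, as deposited by the authors, who mapped cleaned paired reads of 150 bases to hg38 with HISAT2; the counting program, its annotation and its use of strand are not given in the sources used here. The table also holds 4 columns that no sample label matches, and these were not used. The members and gene lists were chosen with earlier results of these data known.

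Counts were tested with edgeR 4.0.16 in R 4.3.3 (quasi-likelihood, TMM, 10 counts or more over all libraries, Benjamini-Hochberg adjustment over all 25873 genes, called at an adjusted p under 0.05), with all 12 libraries in 1 model and the group as its only term. The 7 comparisons were those among the 3 co-cultures, each co-culture with mono-culture, and the mean of the 3 co-cultures with mono-culture. Replicate number terms were tested in a model with group and number. Standard errors were derived from edgeR's F statistic, and 95% intervals use the residual plus prior degrees of freedom. CPM used TMM library sizes, correlations used log2(CPM + 2), and FPKM and positions used GENCODE release 29. Genes were named by a fixed rule: the 6 members, list genes that were called (up to 4 per list and comparison), NCF1B, NCF1C, CYBC1, SPI1, IRF8 and SOD2, and the 2 genes with the pattern most like each member's; list genes near 0 counts, PIK3CG and PLCG2 were added after their values were seen. Some genes of the lists are not reported here.

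Alternatives were DESeq2 1.42.0, edgeR with DESeq2's size factors, no filter on low counts, a replicate block, and each library left out in turn. The scripts were tested on simulated counts. No pair of libraries of a group agreed within sampling noise.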

Additional observations from a re-analysis of the deposited data

How the results depend on the processing

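Over the 7 comparisons, NCF1 was called in all 4 comparisons with mono-culture by DESeq2 and with a replicate block, and in 3 of them when all 34767 genes with a count were kept. The count of members called with senECs against mono-culture was 1 by DESeq2 and 1 with the replicate block, in place of 0, and with EGCG-treated senECs against mono-culture it was 1, 1 and, with all genes kept, 2 (NCF1 and CYBB, whose log2 fold change was 0.44, adjusted p = 0.0191). The standard error of CYBB was 0.115 with all genes kept, against 0.498 with the filter, at nearly the same fold change (0.43). With all genes kept the members had nearly equal standard errors, from 0.1126 (CYBA) to 0.1152 (NCF4). The call of CYBB thus rests on spread pooled across genes. With libraries left out in turn, the count was 0 to 1 against mono-culture for control ECs, EGCG-treated senECs and any co-culture. Of 672 log2 fold changes of members under an alternative, 615 kept their direction and their side of the threshold, 6 lost the call, 7 gained it and 44 changed sign, none of the latter past the threshold.

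The sign changes outside the left-out libraries were all near 0. NCF4 with EGCG-treated senECs against control ECs was -0.0178 with the replicate block, -0.0001 by DESeq2, -0.0001 with its size factors and -0.0104 with all genes. RAC1 with EGCG-treated senECs against mono-culture was -0.0272 with the block and -0.0053 with all genes, and with the block CYBB with control ECs against mono-culture was -0.0045 and CYBA over any co-culture -0.0221. The cause was not tested.

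With libraries left out in turn, sign changes were not limited to values near 0 or to CYBB. Between senECs and control ECs the log2 fold change ranged from -0.274 to 0.914 for CYBB and from -0.0326 to 0.318 for NCF4. Between EGCG-treated senECs and senECs it ranged from -0.61 to 0.681 for CYBB, -0.358 to 0.0271 for CYBA, -0.178 to 0.0101 for RAC1, -0.19 to 0.0045 for RAC2, -0.16 to 0.025 for NCF1 and -0.313 to 0.0375 for NCF4. Between EGCG-treated senECs and control ECs it ranged from -0.308 to 1.02 for CYBB, -0.0189 to 0.0672 for RAC2 and -0.0809 to 0.0846 for NCF4. Against mono-culture CYBB ranged from -0.585 to 0.501 with control ECs, -0.246 to 0.798 with senECs, -0.281 to 0.901 with EGCG-treated senECs and -0.0593 to 0.734 over any co-culture. CYBA ranged from -0.0598 to 0.325 with senECs, -0.146 to 0.08 with EGCG-treated senECs and -0.107 to 0.122 over any co-culture, and RAC1 from -0.0087 to 0.166, -0.0868 to 0.063 and -0.056 to 0.0444.

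Counts over all genes moved more, and those with the replicate block rest on spread pooled almost wholly across genes (prior degrees of freedom 1195). With senECs against control ECs they were 0 (edgeR), 0 (DESeq2), 153 (replicate block) and 114 (all genes kept), with EGCG-treated senECs against senECs 0, 0, 13 and 14, and against control ECs 0, 0, 34 and 43. Against mono-culture they were 37, 116, 469 and 223 for control ECs, 80, 339, 709 and 588 for senECs, 55, 226, 424 and 377 for EGCG-treated senECs, and 187, 439, 824 and 582 for any co-culture. With single libraries left out they ranged from 11 to 44, 19 to 255, 12 to 100 and 37 to 244 in these last 4. Without senEC replicate 5, 28 genes were called with senECs against mono-culture. The deviations from group means of same-numbered libraries correlated at 0.0272 to 0.497, over 0.1 in 10 of 14 pairs, and 9 of 12 libraries correlated best with their own number. Of 40 pairs with unlike numbers 6 were over 0.1, among them all 4 pairs of number 3 with 5 (0.316 to 0.474). The numbers were taken as pairing libraries only if every same-numbered pair was over 0.1, so the replicate block stayed an alternative, although most pairs deviated together. The RAC2 share of the summed counts, without length, was 39.4%, 43.0%, 41.2% and 41.0% in mono-culture, control EC, senEC and EGCG-treated senEC libraries, against 44.4%, 48.1%, 46.3% and 46.1% of FPKM. The effect of depth and of group size on these values was not tested.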
